A study of Mus musculus with 7 samples.

Results

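The genes described here are 7 genes of the T helper 17 (Th17) program: the transcription factor genes Ahr, Rora and Batf, the cytokine genes Il17a, Il17f and Il22, and the receptor gene Il23r. They were taken as a fixed set of names, and a probe set counted as a gene's own where the array annotation gave it 1 gene. By this rule 4 of the 7 genes, Ahr, Rora, Batf and Il17a, had 13 probe sets of their own among 45037 on the array, with 9 for Rora, 2 for Ahr and 1 each for Batf and Il17a. Il22 shares its only probe set with Iltifb, a closely related gene, and Il17f and Il23r were not analysed here. All 4 measured genes passed the filter on dim probe sets and are among 11460 genes tested of 18193.

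Levels come from 7 Affymetrix arrays of CD4+ T cells, sorted from the peripheral lymph nodes of 3-week-old males, and the labels give each mutant group 3 biological replicates. The B6 group is wild-type C57BL/6, with 1 array of cells from the pooled nodes of 2 mice. The Sf group is the Scurfy strain B6.Cg-Foxp3sf/J, whose germline mutation of Foxp3 deprives the animals of functional regulatory T cells. The Sf.Il2-/- group is Scurfy with, in addition, the null allele Il2tm1Hor of the gene of interleukin-2 (strain label B6.129P2-Il2tm1Hor/J). Cells were depleted of those with B220, CD8, CD11b, CD11c or NK1.1 and then sorted for CD3 and CD4, so each array is the mean over all CD4+ T cells, naive, effector and, in B6, regulatory. In such bulk samples fewer cells of a type and less RNA per cell cannot be told apart.

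Th17 cells are the CD4+ T helper cells that make interleukin-17 and defend epithelial surfaces against extracellular bacteria and fungi. Cytokines that act through STAT3 start the program. BATF, an AP-1 family factor that pairs with JUN and IRF4 proteins, opens its genes, and the nuclear receptors RORα and RORγt then drive Il17a, Il17f and Il23r. AHR, a receptor for small aromatic ligands, is carried by these cells and is needed for their interleukin-22, while interleukin-2, through STAT5, is known to restrain the program.

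The promoter of Il17a is shown because it carries the core motif of the ROR factors, whose gene Rora rose in Sf.Il2-/- v B6 while no change of Il17a passed, and the promoter of Rora is shown for its AHR core motif. Both are the 250 bases before the RefSeq start (GRCm38.p6, plus strand, 5′ to 3′), at chr1:20730655-20730904 for Il17a and chr9:68653536-68653785 for Rora. Capitals mark matches on either strand to TTCNNNGAA (STAT), AGGTCA (ROR core), GCGTG (AHR core) or TGANTCA (AP-1 and BATF), none of which overlap here.
Il17a: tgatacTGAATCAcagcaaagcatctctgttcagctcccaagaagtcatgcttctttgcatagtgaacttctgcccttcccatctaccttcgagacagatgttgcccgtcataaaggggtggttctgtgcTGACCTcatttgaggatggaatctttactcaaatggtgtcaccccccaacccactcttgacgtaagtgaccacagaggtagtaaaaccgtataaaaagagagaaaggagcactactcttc
Rora: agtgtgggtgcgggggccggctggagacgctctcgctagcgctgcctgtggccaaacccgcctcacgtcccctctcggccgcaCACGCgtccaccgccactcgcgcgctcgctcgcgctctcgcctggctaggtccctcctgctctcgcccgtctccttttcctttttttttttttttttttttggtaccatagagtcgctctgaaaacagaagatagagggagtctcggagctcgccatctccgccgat
In the Il17a promoter the ROR core, on the minus strand as TGACCT, lies 120 to 115 bases before the start and the AP-1 match TGAATCA lies 244 to 238 bases before it. Rora has 1 AHR core match, CACGC, at 167 to 163 bases before its start. Of the 6 members with an entry in the RefSeq table, the ROR core was found in the windows of Il17a, Il17f and Il23r (2 matches), and the STAT motif in none. Among all 32851 promoter windows of this length 14% held the ROR core, 28.2% the AHR core, 7.02% the STAT motif and 6.75% the AP-1 motif. A match is a description of the letters in the window only.

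The arrays had medians of 29.3 to 32.4 and upper quartiles of 110 to 145 on the deposited intensity scale, and their number limits the precision. Levels below are log2(intensity + 1), each gene is represented by its brightest probe set, and levels of different genes are not set against each other. A group mean under 4 is called near the floor and one from 4 to 5 low, since 30.0% to 34.0% of all probe sets read under 4 in an array. By correlation over dim probe sets the arrays fall into 2 sets that the labels do not name, with Sf 3, Sf.Il2-/- 3 and B6 in set 2 and the others in set 1, although the division is uncertain. Foxp3 read 7.25 in B6, 5.87 to 6.32 in Sf and 4.20 to 4.41 in the arrays labelled Sf.Il2-/-. Il2 read 5.22 in B6, 5.09 to 7.35 in Sf and 7.17 to 8.20 in the arrays labelled Sf.Il2-/-, and since the place of its probes relative to the disrupted part is not given, this checks nothing about the genotype. All 8 CD4 T cell markers with a probe set (of 9) read at least 9.44 in every array. Their summed intensity was 21701 in B6, 11084 to 15683 in Sf and 17975 to 19449 in Sf.Il2-/-, and that of 5 of 6 B cell markers was 3057, 961 to 1760 and 1906 to 2158. Ighm carried the B cell sum, at 11.53 in B6, 9.69 to 10.70 in Sf and at least 10.81 in Sf.Il2-/-, while Cd79a and Ms4a1 were lowest in B6, at 4.25 and 3.53. Both sums also differed between the mutants without overlap, and their part in any of the 3 comparisons was not tested. The 7 macrophage and dendritic cell markers summed to 779 in B6, 529 to 799 in Sf and 535 to 1057 in Sf.Il2-/-. For 2 CD8 T cell markers the sums were 312, 146 to 201 and 151 to 201. Csf1r (8.36 to 9.49) and Adgre1 (5.12 to 6.09) overlapped between the mutants. Cd68 read 5.03 in B6, 4.73 to 5.32 in Sf and 6.20 to 6.74 in Sf.Il2-/-. Lyz2 was highest in Sf.Il2-/- 2, at 7.02. The part of these cells was not tested. The neutrophil gene S100a8 read 6.37 in Sf 1 and 7.63 in Sf.Il2-/- 2 against at most 4.10 in the other arrays. S100a9 (5.72 and 7.09, against at most 3.23) and, narrowly, Camp (5.13 and 5.46, against at most 4.90) also set them apart. Ngp, Ltf, Mpo and Lcn2 did not, and Elane read under 4 in every array. The sum of the 8 neutrophil markers with a probe set was 557 and 894 there, against 366 to 523 elsewhere. Without these 2 arrays the difference of Ahr between the mutants was -1.68 (limma adjusted p = 0.0437).

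**Figure D1:**
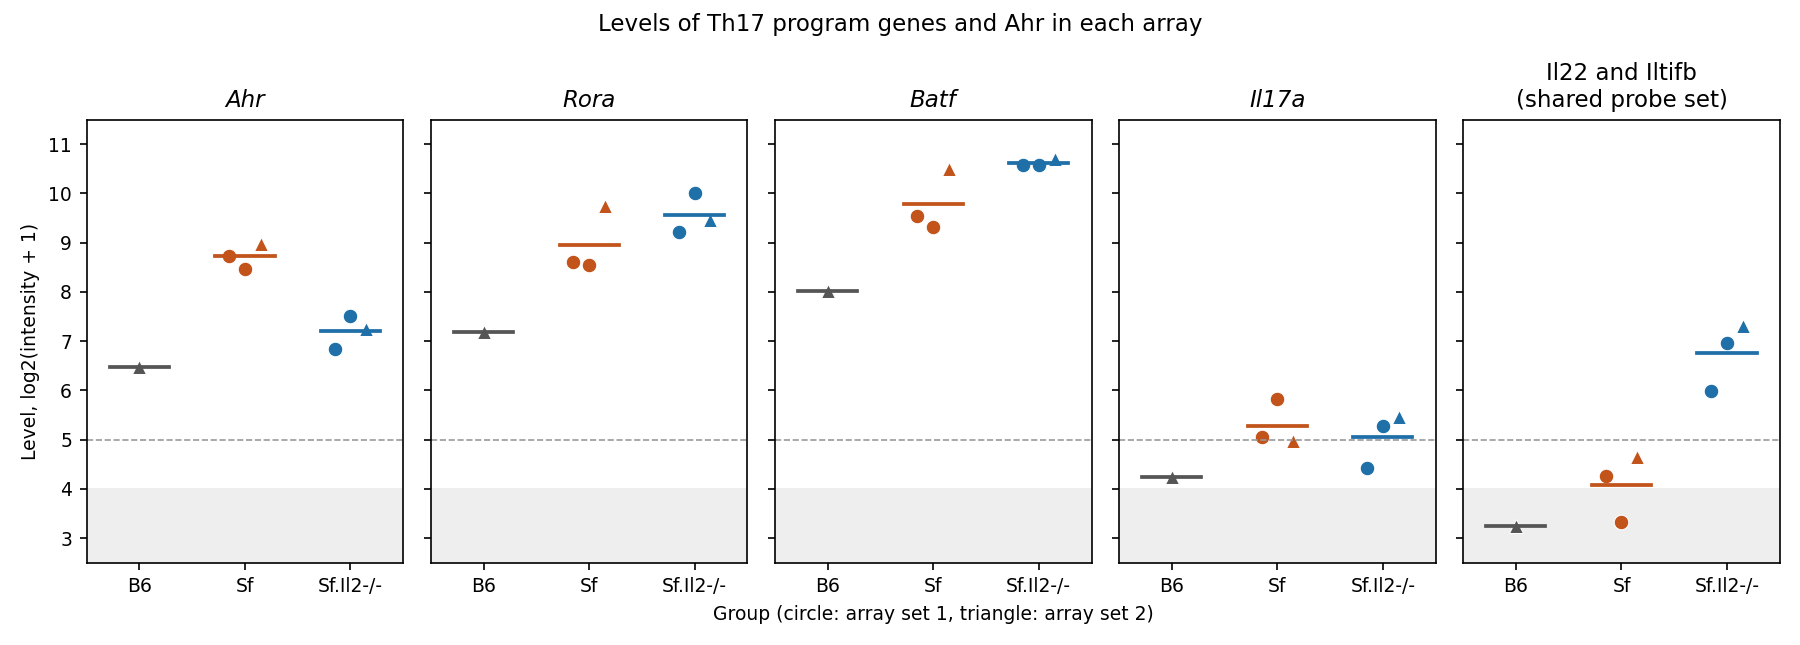
Level of each gene, log2(intensity + 1), on the vertical axis in every array of B6, Sf and Sf.Il2-/-. Points are arrays (circles set 1, triangles set 2), bars are group means, the grey band lies under 4 and the dashed line marks 5. Ahr is high in the 3 Sf arrays only, Rora and Batf are above B6 in all 6 mutant arrays, Il17a stays between 4.25 and 5.83, and the shared probe set of Il22 and Iltifb is above 5 in the 3 Sf.Il2-/- arrays only.

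Of the transcription factors, Ahr, the ligand-activated receptor, rose in Sf and fell again in the arrays labelled Sf.Il2-/-. It was at 6.49 on the B6 array, at 8.73, 8.47 and 8.98 on the Sf arrays and at 6.85, 7.50 and 7.25 on the Sf.Il2-/- arrays. The lowest Sf array lay above the highest Sf.Il2-/- array, and B6 lay below all 6 mutant arrays. In Sf.Il2-/- the level fell by 1.53 ± 0.24 from that in Sf (log2, SE, n = 3 and 3; limma adjusted p = 0.0436), a 2.88-fold difference with a 95% interval of -2.06 to -0.995. Against B6 it was higher by 2.24 ± 0.34 in Sf (n = 3 and 1; adjusted p = 0.0127), a 4.73-fold difference. In Sf.Il2-/- the difference from B6 was 0.71 ± 0.34 (adjusted p = 0.292; interval -0.039 to 1.47), which did not pass. These comparisons share arrays, and their values are set side by side without a test of one against another.

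Among the 4 tested members Ahr was the only one to pass in Sf.Il2-/- v Sf, where 0.236% of all genes tested passed as lower and 0.0436% as higher. By unadjusted p it ranked 24 among 11460 genes there. The adjusted p lay near the threshold of 0.05. It was 0.167 without Sf 1, 0.0676 without Sf 2, 0.176 without Sf.Il2-/- 1, 0.0569 without Sf.Il2-/- 2 and 0.145 without Sf.Il2-/- 3, while the difference stayed between -1.73 and -1.21 over all alternatives. Within array sets 1 and 2 the difference was -1.42 and -1.73. Arrays that did not overlap, all lower, were found for 3.72% of all genes.

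The second probe set of Ahr was dimmer, with 4.39 on the B6 array, 4.93, 5.06 and 5.33 on the Sf arrays and 4.14, 4.44 and 4.05 on the Sf.Il2-/- arrays. It showed the same order between the mutant groups, with no overlap, and passed the filter through its Sf mean of 5.11 alone. In a fit of all 24435 probe sets that passed the filter its difference between Sf.Il2-/- and Sf was -0.90 (limma adjusted p = 0.49), and that of the brighter probe set had an adjusted p of 0.0767. From B6 to Sf the dimmer one differed by 0.71 (adjusted p = 0.369), and the mean of both probe sets by 1.48, which passed (adjusted p = 0.036). In Sf.Il2-/- the dimmer one differed from B6 by -0.18, in the low range, so its fold changes are not exact.

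**Figure D2:**
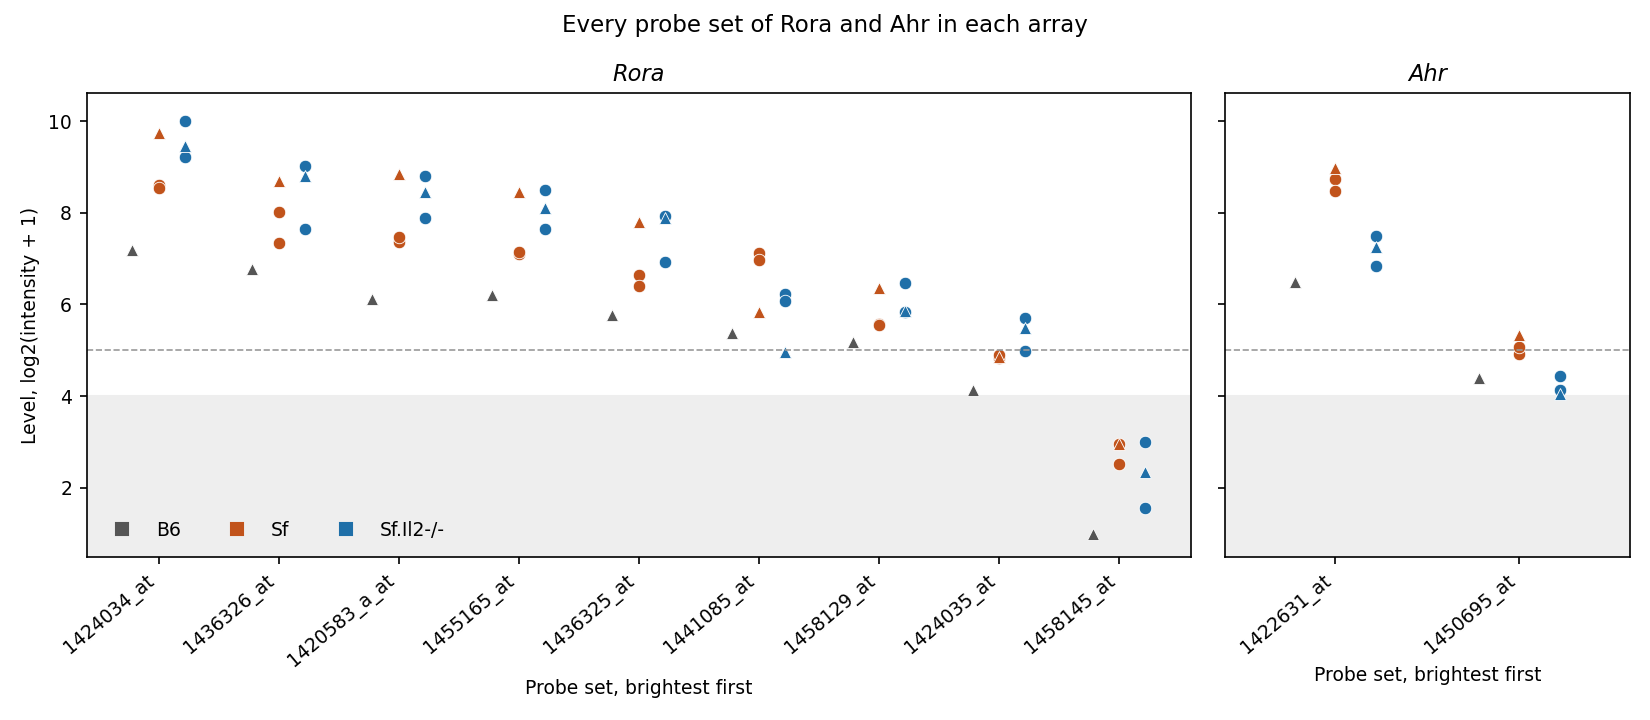
Level, log2(intensity + 1), of all 9 probe sets of Rora and both of Ahr, named by probe set and ordered by brightness, in each array (grey B6, orange Sf, blue Sf.Il2-/-; circles set 1, triangles set 2). The main Rora probe set 1424034_at and 7 others have higher means in both mutant groups than in B6 with all arrays above it, 1441085_at departs from the others within the mutant groups, and 1458145_at lies under 4 in every array. All arrays lay above B6 for 19.6% of all genes in Sf and 24.7% in Sf.Il2-/-.

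Rora, the gene of the nuclear receptor RORα, was higher in the mutants than in B6. Its main probe set was at 7.19 on the B6 array, at 8.61, 8.54 and 9.74 on the Sf arrays and at 9.21, 10.00 and 9.46 on the Sf.Il2-/- arrays. All mutant arrays lay above B6, and Sf 3 lay among the Sf.Il2-/- arrays while Sf 1 and Sf 2 lay below them. In Sf.Il2-/- the level rose from that of B6 by 2.37 ± 0.49 (log2, SE, n = 3 and 1; limma adjusted p = 0.0383), a 5.16-fold difference. This call was lost without Sf.Il2-/- 1 (adjusted p = 0.0662), 2 (adjusted p = 0.0894) or 3 (adjusted p = 0.0748), and the mean of the 9 probe sets gave 1.54 (adjusted p = 0.0566). In Sf the difference from B6 was 1.77 ± 0.49 (adjusted p = 0.0889), which did not pass, and 1.38 without Sf 3 (adjusted p = 0.0131).

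Between the mutant groups Rora differed by 0.60 ± 0.34 (limma adjusted p = 0.768; 95% interval -0.17 to 1.37). The difference was 1.03 within array set 1 and -0.28 within set 2. Without Sf 3 it was 0.99 and passed (adjusted p = 0.039), while it was 0.38 without Sf 2, 0.37 without Sf.Il2-/- 2 and 0.23 as the mean of the probe sets, none of which passed (adjusted p of at least 0.953). Its size was therefore not settled by these arrays.

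The other probe sets of Rora gave a fuller picture of this gene. Means were above B6 at all 9 in Sf and at all 9 in Sf.Il2-/-, with every array above B6 at 9 and at 8 of them, and median differences of 1.26 and 1.73. Every array lay above B6 for 19.6% and 24.7% of all genes tested, and no such share was taken over probe sets. The 9 share the same 1 B6 array, and 1 of them, 1458145_at, read under 4 in every array. Of the 8 bright enough for the fit of probe sets, 0 passed limma's adjusted threshold in either comparison, with 3 and 6 at an unadjusted p under 0.05, where 0.688% and 0.802% of all probe sets passed as higher. Against Sf, 7 of 9 had a higher mean in Sf.Il2-/- and 0 of 8 passed, with 0 at an unadjusted p under 0.05. Only 0.00818% of all probe sets passed as higher in that comparison.

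Probe set 1441085_at went its own way. It was at 5.39 on the B6 array, at 7.13, 6.98 and 5.83 on the Sf arrays and at 6.23, 6.07 and 4.96 on the Sf.Il2-/- arrays, so that its highest levels were in Sf 1 and Sf 2, the mutant arrays lowest at the main probe set. Over the 7 arrays its correlation with the main probe set was -0.058, against 0.861 to 0.988 for the 6 others above the floor. Whether it reports another transcript of Rora was not tested.

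Batf, the AP-1 factor gene, rose in the arrays labelled Sf.Il2-/-. It was at 8.02 on the B6 array, at 9.55, 9.32 and 10.50 on the Sf arrays and at 10.57, 10.59 and 10.69 on the Sf.Il2-/- arrays. The Sf.Il2-/- arrays lay close together and above every Sf array, and Sf 3 was again the Sf array nearest to them. From B6 to Sf.Il2-/- the level rose by 2.60 ± 0.41 (log2, SE, n = 3 and 1; limma adjusted p = 0.014), a 6.06-fold difference, and this passed in each of the 17 alternatives that gave a test, at an adjusted p of at most 0.0386. From B6 to Sf the difference was 1.77 ± 0.41 (adjusted p = 0.0557), which did not pass. With the replicate numbers as a block it was 1.63 and passed (adjusted p = 0.0269), as it did without Sf 2 (2.01, adjusted p = 0.0284) and without Sf 3 (1.41, adjusted p = 0.00347).

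Between the mutant groups Batf differed by 0.83 ± 0.29 (limma adjusted p = 0.478; 95% interval 0.18 to 1.47), which did not pass. Arrays that did not overlap, all higher, were found for 8.39% of all genes in that comparison. The difference was 1.15 within array set 1 and 0.19 within set 2, and without Sf 3 it was 1.19 and passed (adjusted p = 0.00763). For both Batf and Rora, then, the call between the mutants turned on whether Sf 3 was kept. Over all genes 872 passed between the mutants without Sf 3, against 32 with all arrays, so this gain was not particular to them. In Sf v B6, too, far more genes passed without Sf 3 or with the replicate block, as given in the closing section. Without Sf 3 the Sf arrays all lie in array set 1 and B6 in set 2, so Sf v B6 is then also a difference of array sets.

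Il17a, the gene of the cytokine that gives these cells their name, lay close to the filter in every group. Its single probe set gave 4.25 on the B6 array, 5.06, 5.83 and 4.97 on the Sf arrays and 4.43, 5.29 and 5.46 on the Sf.Il2-/- arrays. The mutant groups overlapped, and all 6 arrays lay above B6, at a mean level at the 51.0th percentile of all probe sets. The differences were 1.04 ± 0.51 for Sf v B6 (limma adjusted p = 0.258), 0.81 ± 0.51 for Sf.Il2-/- v B6 (adjusted p = 0.435) and -0.23 ± 0.36 for Sf.Il2-/- v Sf (adjusted p = 0.948; 95% interval -1.03 to 0.58). Within array sets 1 and 2 the last of these was -0.59 and 0.50. None passed, and at levels this near 5 the sizes are not exact.

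**Figure D3:**
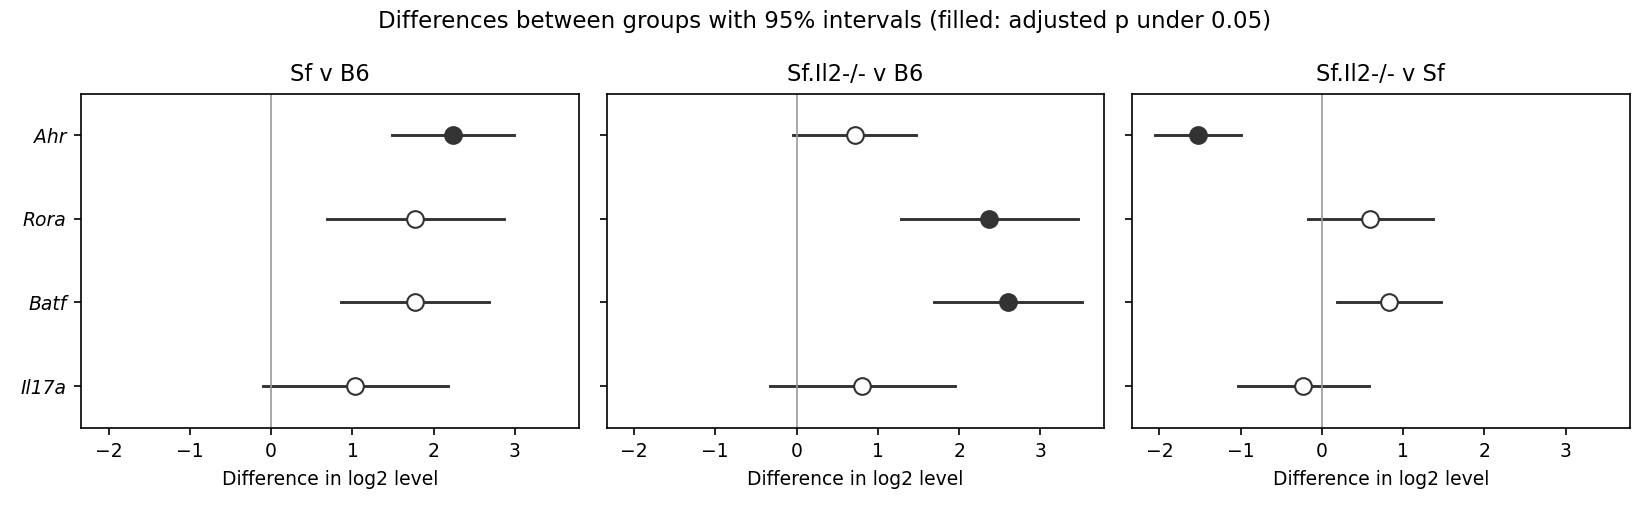
Difference in log2 level for Ahr, Rora, Batf and Il17a in each comparison (horizontal axis), with 95% intervals from limma. Filled points passed at an adjusted p of 0.05, which were Ahr at 2.24 in Sf v B6, Rora at 2.37 and Batf at 2.60 in Sf.Il2-/- v B6, and Ahr at -1.53 in Sf.Il2-/- v Sf.

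Against B6, 1 of the 4 tested members rose in Sf (Ahr) and 2 in Sf.Il2-/- (Rora and Batf), with 0 falling in either, where 1.31% and 1.49% of all genes passed as higher. Over all genes these were 150 higher and 133 lower in Sf v B6, and 391 and 163 after quantile normalization, against 171 and 137, and 484 and 239, in Sf.Il2-/- v B6. All 4 had every mutant array above B6, which held for 19.6% of all genes in Sf and 24.7% in Sf.Il2-/-. The B6 side of both comparisons is the same 1 array, whose spread is taken from the mutant arrays.

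The probe set that Il22 shares with Iltifb, whose signal cannot be assigned to either gene, was higher in the arrays labelled Sf.Il2-/-. It was at 3.25 on the B6 array, at 4.26, 3.33 and 4.65 on the Sf arrays and at 6.00, 6.96 and 7.31 on the Sf.Il2-/- arrays. The B6 level was near the floor and the Sf mean low, and every Sf.Il2-/- array lay above every other array. This probe set passed the filter through its Sf.Il2-/- mean of 6.76 alone, so its tests are not independent of that group being high. Of all genes tested, 8.39% had every Sf.Il2-/- array above Sf and 24.7% above B6, and no such share was taken over probe sets. In the fit of probe sets the level rose from B6 to Sf.Il2-/- by 3.51 ± 0.60 (log2, SE, n = 3 and 1; limma adjusted p = 0.0291). This was lost without Sf.Il2-/- 2 (adjusted p = 0.0833) or 3 (adjusted p = 0.075), and its size is not exact.

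Between the mutants this probe set differed by 2.68 ± 0.43 (limma adjusted p = 0.0767), which did not pass. The values within array sets 1 and 2 were nearly equal, at 2.68 and 2.66. Without Sf 3 the difference was 2.96 and passed (adjusted p = 0.013). In the fit of genes 872 passed in that setting, against 32 with all arrays. From B6 to Sf the difference was 0.83 (adjusted p = 0.454).

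Markers of other cells that make these cytokines were read beside these values. Of 7 innate lymphoid and NK cell markers 4 had a probe set, with a summed intensity of 193 in B6, 214 to 405 in Sf and 504 to 1030 in Sf.Il2-/-. Eomes, which T cells also express, carried this shift, from 6.94 in B6 and 7.29 to 8.46 in Sf to 8.82 to 9.90 in Sf.Il2-/-, while Ncr1 and Klra8 read under 4 in every array and Klrb1a read 5.19 to 5.92. Of 8 markers of gamma delta and NKT-like cells 4 had a probe set, with a summed intensity of 103 in B6, 106 to 140 in Sf and 113 to 117 in Sf.Il2-/-, and Blk read under 4 in every array. The part of these cells in the level of the shared probe set was not tested.

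Over the 7 arrays Rora and Batf followed each other, with a Pearson correlation of 0.961, while Ahr correlated with them at 0.325 and 0.204. These points share their arrays, and the values are descriptions. The tested genes most like Ahr were Cdkn1a (0.981), Fgl2 (0.978) and Ifitm3 (0.967). Slc37a2 (0.994), Fuca2 (0.99) and Gng2 (0.985) were most like Rora. For Batf they were Tnfsf14 (0.995), Gab2 (0.987) and 6330403K07Rik (0.985), and for Il17a, whose range is narrow, Atp6v0e2 (0.968), Mnat1 (0.929) and Errfi1 (0.919).

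The rest of the pathway was read in 7 lists of 69 genes, of which 64 had a probe set of their own and 47 were tested. In Sf v B6, 6 rose, 4 fell and 37 did neither. In Sf.Il2-/- v B6, 5 rose, 2 fell and 40 did neither, and between the mutants 1 rose, 1 fell and 45 did neither. Of all genes 1.16% passed as lower in Sf v B6 and 1.2% in Sf.Il2-/- v B6. With the replicate numbers as a block 17 list genes passed in Sf v B6 and 13 in Sf.Il2-/- v B6, where the counts over all genes were 1880 and 1212. Without Sf 3 the list genes that passed were 19 in Sf v B6, 15 in Sf.Il2-/- v B6 and 9 between the mutants. The counts over all genes were then 3523, 1541 and 872, so this gain was not particular to the lists.

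Among the cytokine inputs of Th17 cells, 3 of 11 tested genes rose and 3 fell in Sf. Il21, a cytokine that feeds the program through STAT3, rose by 2.62 ± 0.30 in Sf (log2, SE; limma adjusted p = 0.00481) and by 3.11 ± 0.30 in Sf.Il2-/- (adjusted p = 0.00172). Il12rb1, the receptor chain that pairs with IL-23R, rose by 1.86 in Sf (adjusted p = 0.0398) and was 7.17 to 7.87 in Sf.Il2-/- against 6.00 in B6 (adjusted p = 0.0913). The receptor gene Il6ra fell by 2.70 ± 0.31 in Sf (adjusted p = 0.00481) and by 2.61 ± 0.31 in Sf.Il2-/- (adjusted p = 0.00471). Its partner chain Il6st fell by 1.92 in Sf (adjusted p = 0.0462), as did the TGF-beta receptor gene Tgfbr2 by 1.55 (adjusted p = 0.0252). As the mean of their probe sets Il21 was at 1.57 (adjusted p = 0.0561) and Tgfbr2 at -0.89 (adjusted p = 0.201) in Sf v B6. In that comparison the calls of Il12rb1, Il6st and Tgfbr2 were lost without Sf 1 (adjusted p = 0.069, 0.0702 and 0.0713), those of Il12rb1 and Il6st also without Sf.Il2-/- 1 (0.0564 and 0.0598) or 2 (0.055 and 0.0672), and that of Il6st without Sf 2 (0.0523) or Sf.Il2-/- 3 (0.0555). The list's median difference in Sf was -0.59, against -0.25 over all genes.

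Il1r1, the interleukin-1 receptor that promotes Th17 cells, was the 1 list gene that rose between the mutants. It was at 4.11 on the B6 array, at 5.65, 5.74 and 5.69 on the Sf arrays and at 6.91, 7.19 and 7.31 on the Sf.Il2-/- arrays. The 3 groups did not overlap. Of all genes 8.39% had every Sf.Il2-/- array above Sf, and 19.6% had every Sf array above B6. The level rose by 1.44 ± 0.20 from Sf to Sf.Il2-/- (log2, SE, n = 3 and 3; limma adjusted p = 0.0277) and by 1.59 from B6 to Sf (adjusted p = 0.024). As the mean of its 2 probe sets the difference between the mutants was 0.28 (adjusted p = 0.94). The call between them was also lost with no filter (adjusted p = 0.0841) and without the 2 arrays with neutrophil transcripts (adjusted p = 0.174). It was lost, too, without Sf 1 (adjusted p = 0.128), Sf 2 (adjusted p = 0.0831), or Sf.Il2-/- 1 (adjusted p = 0.0759), 2 (adjusted p = 0.0977) or 3 (adjusted p = 0.116), and the call of Sf v B6 without Sf 1 (adjusted p = 0.069). With B6 in the low range the size of the latter is not exact, and its call was also lost with a pseudocount of 16 (1.05, adjusted p = 0.0663), with no filter (adjusted p = 0.0503), as the mean of the probe sets (1.30, adjusted p = 0.0976) and without the 2 arrays with neutrophil transcripts (adjusted p = 0.0601). Against B6 the rise in Sf.Il2-/- was 3.03 (adjusted p = 0.00172), and 1.58 as the mean of the probe sets (adjusted p = 0.055).

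**Figure D4:**
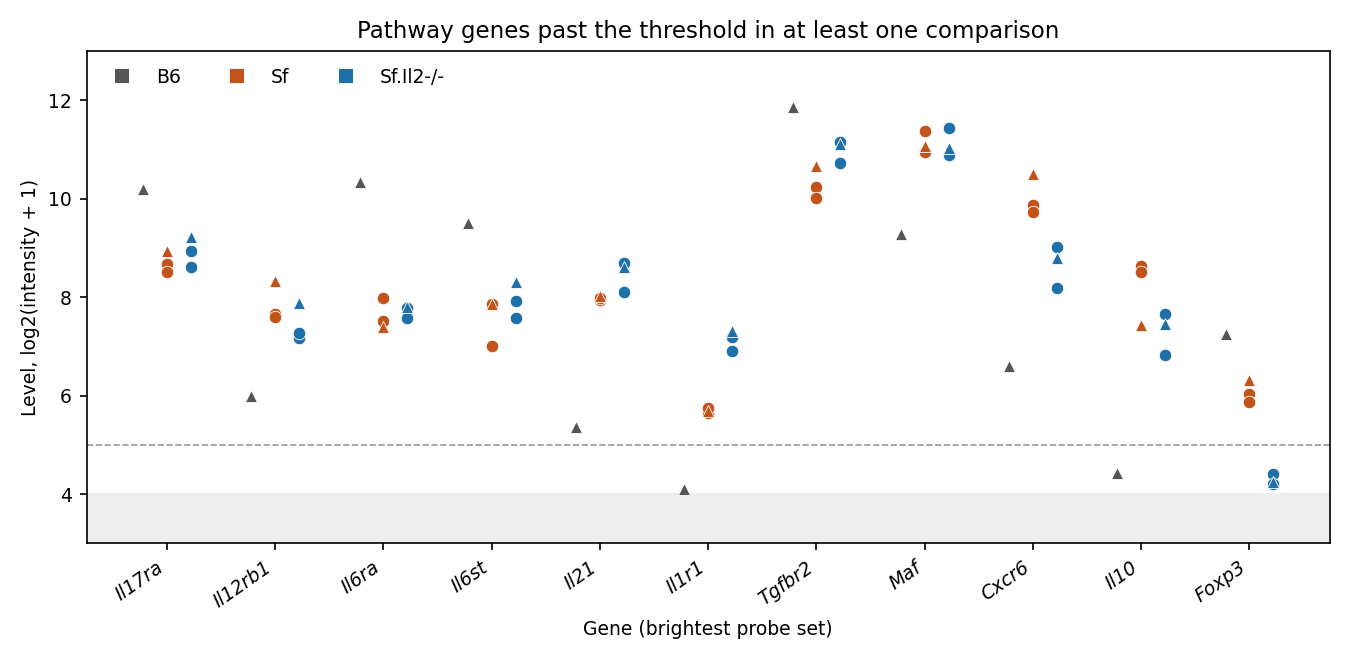
Level, log2(intensity + 1), of the 11 list genes that passed in at least 1 comparison, in each array (grey B6, orange Sf, blue Sf.Il2-/-; circles set 1, triangles set 2; grey band under 4, dashed line at 5). Il12rb1, Il21, Il1r1, Maf, Cxcr6 and Il10 lie above B6 in all 6 mutant arrays and Il17ra, Il6ra, Il6st, Tgfbr2 and Foxp3 below it. Every Sf array lay above B6 for 19.6% of all genes and every Sf.Il2-/- array for 24.7%, and the share below B6 was not taken. The mutant groups do not overlap for Il1r1, Il21, Tgfbr2, Cxcr6 and Foxp3, of which Il1r1 and Foxp3 passed between them. Of all genes 8.39% had every Sf.Il2-/- array above Sf and 3.72% below it.

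The AHR partners and target genes did not follow Ahr past the threshold. Of 4 tested, 0 passed in any comparison by limma, with 1 at an unadjusted p under 0.05 in each. Arnt2, a relative of the AHR partner Arnt, had the lowest p in both comparisons that involve Sf. It was at 4.29 on the B6 array, at 6.52, 5.95 and 5.61 on the Sf arrays and at 4.72, 4.57 and 4.95 on the Sf.Il2-/- arrays. Its Sf arrays lay above all others, as those of Ahr did. Of all genes 19.6% had every Sf array above B6, and 3.72% had every Sf.Il2-/- array below Sf. Arnt2 passed the filter through its Sf mean of 6.03 alone. Its B6 and Sf.Il2-/- means were in the low range, so its sizes are not exact. The differences were 1.74 in Sf v B6 (adjusted p = 0.0603) and -1.28 in Sf.Il2-/- v Sf (adjusted p = 0.197). The first passed in 2 of 16 alternatives, with the replicate block and without Sf 3. The second passed in 1 of 17, without Sf 3 (-1.49, adjusted p = 0.0222). As the mean of its 3 probe sets Arnt2 differed by 1.13 and -0.74, and neither passed. Of the classical target genes Tiparp read 7.22 to 7.87 over the 7 arrays with no group apart, Cyp1a1, Ahrr and Nqo1 had all group means under 4, and Cyp1b1 read 3.98 to 5.10. Arnt had the lowest p in Sf.Il2-/- v B6, at -0.66 (adjusted p = 0.269).

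Of the partners of BATF, 0 of 6 tested passed in any comparison by limma, with 1 in Sf v B6, 1 in Sf.Il2-/- v B6 and 0 between the mutants at an unadjusted p under 0.05. Irf4, the interferon regulatory factor that binds with BATF, read 7.04 in B6, 7.79 to 8.46 in Sf and 8.06 to 8.44 in Sf.Il2-/-. Its differences from B6 were 1.03 (adjusted p = 0.123) and 1.20 (adjusted p = 0.102), and with the replicate numbers as a block 0.96 (adjusted p = 0.0404) and 1.12 (adjusted p = 0.0329). Between the mutants the lowest p in this list was that of Jun at -0.76 (adjusted p = 0.821).

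Of 6 tested Th17 transcription factor genes beside the members, Maf, a factor of Th17 and other effector cells, rose by 1.85 ± 0.27 in Sf (log2, SE; limma adjusted p = 0.0115) and by 1.84 ± 0.27 in Sf.Il2-/- (adjusted p = 0.0114), and 5 did neither in each. Between the mutants 0 of 6 passed, with 0 at an unadjusted p under 0.05, and Ikzf3 had the lowest p at 0.50 (adjusted p = 0.719).

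Of 5 tested surface and effector genes, Il10 rose by 3.77 in Sf (limma adjusted p = 0.00813) and by 2.89 in Sf.Il2-/- (adjusted p = 0.0182). The chemokine receptor gene Cxcr6 rose by 3.44 in Sf (adjusted p = 0.00495) and by 2.07 in Sf.Il2-/- (adjusted p = 0.0336), the latter lost without Sf.Il2-/- 2 (adjusted p = 0.0804) or 3 (adjusted p = 0.0748). Il10 read 4.42 in B6, in the low range, so its size is not exact. Between the mutants 0 of 5 passed, with 4 at an unadjusted p under 0.05. Of these, Cxcr6 (-1.37), Il10 (-0.88) and Csf2 were lower in Sf.Il2-/- than in Sf. The chemokine receptor gene Ccr6 was higher, at 0.99 (adjusted p = 0.625). Csf2, which encodes GM-CSF, a growth factor that Th17 cells can make, had the lowest p at -3.18 (adjusted p = 0.0547, and 0.0489 with the replicate numbers as a block), and read under 3 in all Sf.Il2-/- arrays. So near the floor its size is not exact, and with a pseudocount of 16 it was -1.71 (adjusted p = 0.106). Csf2 passed the filter through its Sf mean of 5.66 alone.

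Among the genes of the IL-17 and IL-22 receptors and relatives, 5 were tested. Il17ra, a chain of the IL-17 receptor, fell by 1.50 in Sf (limma adjusted p = 0.0453), a call lost without Sf 1 (adjusted p = 0.129), Sf 2 (adjusted p = 0.0717) or any 1 Sf.Il2-/- array (adjusted p = 0.057 to 0.0765). Its difference in Sf.Il2-/- v B6 was -1.28 (adjusted p = 0.0747, and 0.0229 with the replicate numbers as a block). Between the mutants 0 of 5 passed, with 1 at an unadjusted p under 0.05, and Il17rb had the lowest p at -1.12 (adjusted p = 0.365). Of the 10 tested factors known to restrain Th17 cells, Foxp3 fell by 2.96 in Sf.Il2-/- v B6 (adjusted p = 0.00263) and by 1.79 in Sf.Il2-/- v Sf (adjusted p = 0.0211), and the other 9 did not pass in either. The latter call was lost without Sf 1 (adjusted p = 0.081), Sf.Il2-/- 1 (adjusted p = 0.0597) or Sf.Il2-/- 3 (adjusted p = 0.0945). Foxp3 carries the Scurfy mutation in both mutant groups, and these are levels of its transcript only. Its Sf.Il2-/- mean of 4.28 was in the low range, so the sizes of these falls are not exact. In Sf v B6 0 of 10 passed, with 3 at an unadjusted p under 0.05, and Foxp3 was at -1.17 (adjusted p = 0.0904, and 0.0431 with the replicate numbers as a block).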

How the data were processed

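RNA of 7 samples was hybridised to Affymetrix mouse arrays. The deposited values are probe set intensities that the authors summarised on a linear scale, with GCRMA and GCOS named in the submitters' processing notes without version, order or parameters. Probe level steps and any normalization between arrays are not given in the sources used here.

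Gene symbols came from the array annotation and were updated through Entrez numbers to GRCm38.p6. Of 45037 probe sets 34945 named 1 gene, 932 several and 9160 none. Values were taken as log2(intensity + 1). The brightest probe set, by the mean of the 7 arrays, stood for a gene, which was tested where the highest group mean was at least 5. One limma 3.58.1 fit in R 4.3.3 (lmFit, eBayes with an intensity trend, 4 residual degrees of freedom) gave the 3 comparisons, with Benjamini-Hochberg adjustment over 11460 genes at 0.05, and was tested on simulated data. B6, with 1 array, is assumed to vary like the mutant arrays. The labels call the mutant arrays biological replicates without naming animals, so p-values measure the spread between these arrays. Sequences are from RefSeq. Figures were drawn with matplotlib 3.10.9.

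Replicate numbers are in the titles. Deviations from the group mean correlated at 0.301, 0.211 and 0.505 between same-numbered mutant arrays. All were over 0.1, so the numbers were tried as a block, although some unlike numbers also passed 0.1 and pairs are not established. Sf 2 correlated more with Sf.Il2-/- 1 (0.333) than with its own number, and Sf 1 with Sf.Il2-/- 2 at 0.111, while the other unlike numbers lay between -0.477 and -0.199. With this block the B6 array, numbered 1, was grouped with Sf 1 and Sf.Il2-/- 1. Nothing in the labels pairs B6 with them, and it lies in array set 2 while they lie in set 1. Passes against B6 with this block rest on that grouping. The members, lists, the rule for named genes and the settings were chosen with earlier results of these data known. The rule named all members, the list genes past the threshold or else the one with the lowest p, and the 3 genes most correlated with each member. Other genes of the lists are named after their values were seen. Alternatives are given in the closing section. The fit of single probe sets was added after seeing the data.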

Additional observations from a re-analysis of the deposited data

How the results depend on the processing

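The number of members past the threshold moved with the settings. In Sf.Il2-/- v Sf it was 1, and 0 with no filter, with arrays centred on their medians, without an intensity trend, with the mean of probe sets or with the probe set as the unit tested, and 0 to 3 when 1 array was left out. In Sf v B6 it was 1, and 2 with a filter at 6 or the replicate block, 3 with quantile normalization, the array set block or without the 2 arrays with neutrophil transcripts (Sf 1 and Sf.Il2-/- 2), and 1 to 3 when 1 array was left out. In Sf.Il2-/- v B6 it was 2, and 1 with no filter, without an intensity trend, with the mean of probe sets or with the probe set as the unit tested, and 1 to 2 when 1 array was left out. Ahr in Sf v B6 and Batf in Sf.Il2-/- v B6 kept their direction in all 18 alternatives each and their call in the 17 that gave a test. The difference of Il17a between the mutants changed sign without Sf 2 (0.045) and without Sf.Il2-/- 1 (0.088), with a range of -0.43 to 0.088 when 1 array was left out, and was 0.50 within array set 2 against -0.59 within set 1. With a filter at 6 it was not tested. Beside the results given above, the replicate block changed the call of no other member. The array set block gave Batf 2.17 (adjusted p = 0.0127) and Rora 2.11 (adjusted p = 0.0428) in Sf v B6, and the shared probe set 2.68 between the mutants (adjusted p = 0.0311). Over all genes the counts were 32, 283 and 308 in Sf.Il2-/- v Sf, Sf v B6 and Sf.Il2-/- v B6. They were 11, 161 and 138 with no filter, 60, 1880 and 1212 with the replicate block, 74, 605 and 721 with the array set block, and 872, 3523 and 1541 without Sf 3. Probe sets with means under 5 limit the sizes given for Il17a, the shared probe set, Il1r1, Il10, Csf2, Arnt2 and Foxp3. With a pseudocount of 16 Foxp3 differed by -1.26 between the mutants and Arnt2 by 1.22 in Sf v B6.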
